A study of Saccharomyces cerevisiae with 4 samples.

Results

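The 26S proteasome genes of budding yeast (Saccharomyces cerevisiae) are described here together with RPN4, the gene of their transcriptional activator. Members were chosen by symbol alone, as genes whose platform symbol is PRE, PUP, RPN or RPT followed by digits, or SCL1. This gave 34 of the 5449 named genes on the array, each read by 1 of its 5716 probe sets. Of the 34, 14 encode the core particle (7 of the alpha ring and 7 of the beta ring) and 18 the regulatory particle (6 ATPases of the base, 4 other base subunits and 8 lid subunits). The other two are RPN4 and RPN14, the latter an assembly chaperone that carries a subunit-like name. None of the 34 was read by a probe set marked as detecting similar transcripts, and all 34 passed the filter on low signal.

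The study compared messenger RNA levels after loss of subunits of SAGA, a coactivator complex that acetylates histones and helps the transcription machinery onto promoters. All 4 arrays hold total RNA of the haploid MATalpha laboratory strain BY4742, grown in rich glucose medium (YPD) at 30 °C in exponential phase. The ada1 mutant lacks ADA1 (now HFI1), a structural subunit of SAGA, and the gcn5 mutant lacks GCN5, its acetyltransferase; in each the gene was replaced with KanMX, a drug resistance cassette. Each mutant was measured on 1 array and wild type on 2 arrays.

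The proteasome degrades proteins marked with ubiquitin. Its core particle is a stack of rings, in which the outer alpha rings form the gate and the inner beta rings hold the proteolytic sites. The regulatory particle caps the core: its base holds a ring of ATPases that unfold substrates and thread them inwards, and its lid removes the ubiquitin chain. In yeast most subunit genes share a promoter element bound by Rpn4, and Rpn4 is itself a short-lived substrate of the proteasome, which closes a feedback loop.

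Both deletions matched their labels. HFI1 read 6.70 in the ada1 mutant and 372, 246 and 279.8 on the other arrays, and GCN5 read 3.28 in the gcn5 mutant and 333, 309 and 385 elsewhere. Signals of genes that MATalpha cells or BY4742 lack or silence (STE2, MFA1, MFA2, LEU2, LYS2 and URA3) were all below background, at 111 or less. The alpha-specific receptor gene STE3 read 423 and 517 in the ada1 and gcn5 mutants, and 3645 and 3971 in wild type. MF(ALPHA)1, also alpha-specific, read 2602 and 4967 in the mutants and 11518 and 8012 in wild type. MF(ALPHA)2 read 134 and 204 in the mutants and 10770 and 8181 in wild type. Median signal was 413 to 525 per array. Maxima fell into pairs, 21989 in the ada1 mutant and 23746 in wild-type replicate 1, and 12244 in the gcn5 mutant and 11804 in wild-type replicate 2; the labels name no batch. Only the wild-type pair gave an estimate of the spread, and each mutant array was assumed to vary as that pair does. The labels do not say whether separate cultures were used for wild type, so the spread behind p-values and intervals may be only technical. That spread may also be too wide. Wild-type replicate 1 was below replicate 2 for 73.4 percent of all genes tested (median log2 gap -0.18), and this shared gap enters it. The part of the signal range in the spread was not tested. Both mutants were compared with the same wild-type arrays, so the comparisons are not independent.

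No proteasome gene was called changed in either mutant. With limma and Benjamini-Hochberg adjustment, 0 of the 34 members had an adjusted p under 0.05 in the ada1 mutant, where 8.43 percent of all 4541 genes and unnamed probe sets tested were called (2.73 percent higher and 5.70 percent lower). The smallest adjusted p was 0.438 (PRE5), and 0 members had an unadjusted p under 0.05, against 16.6 percent of all tested genes. Again 0 members were called in the gcn5 mutant, against 4.65 percent (2.11 percent higher and 2.53 percent lower). There the smallest adjusted p was 0.264 (RPT2), and 1 member had an unadjusted p under 0.05, against 15.0 percent. Fitted log2 differences of the members ran from -0.36 to 0.34 in the ada1 mutant and from -0.35 to 0.47 in the gcn5 mutant. The median over the members was -0.067 in the ada1 and 0.16 in the gcn5 mutant, beside 0.080 and 0.15 over all tested genes.

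The intervals bound what could have been missed, as far as the fitted spread holds. In both mutants the 95% interval of the difference lay within 2-fold of wild type for all 32 subunit genes. This held for 55.5 percent of all tested genes in the ada1 and 52.6 percent in the gcn5 mutant. Interval width follows mean signal alone in this fit. SEs were 0.22 to 0.30 among subunits and 0.22 to 1.37 over all tested genes, so these shares depend on signal level. The outermost log2 bounds among subunits were -0.80 (PRE6) and 0.84 (RPN1) in the ada1 mutant, and -0.86 (PRE10) and 0.90 (RPT2) in the gcn5 mutant. These intervals are not adjusted for the number of genes. With a single variance prior in place of a spread that follows the signal, 28 of 32 lay within 2-fold in the ada1 and 24 of 32 in the gcn5 mutant. After scaling to a common median 30 of 32 did so in each mutant. Without the filter on low signal 31 of 32 did so in the gcn5 mutant.

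**Figure D1:**
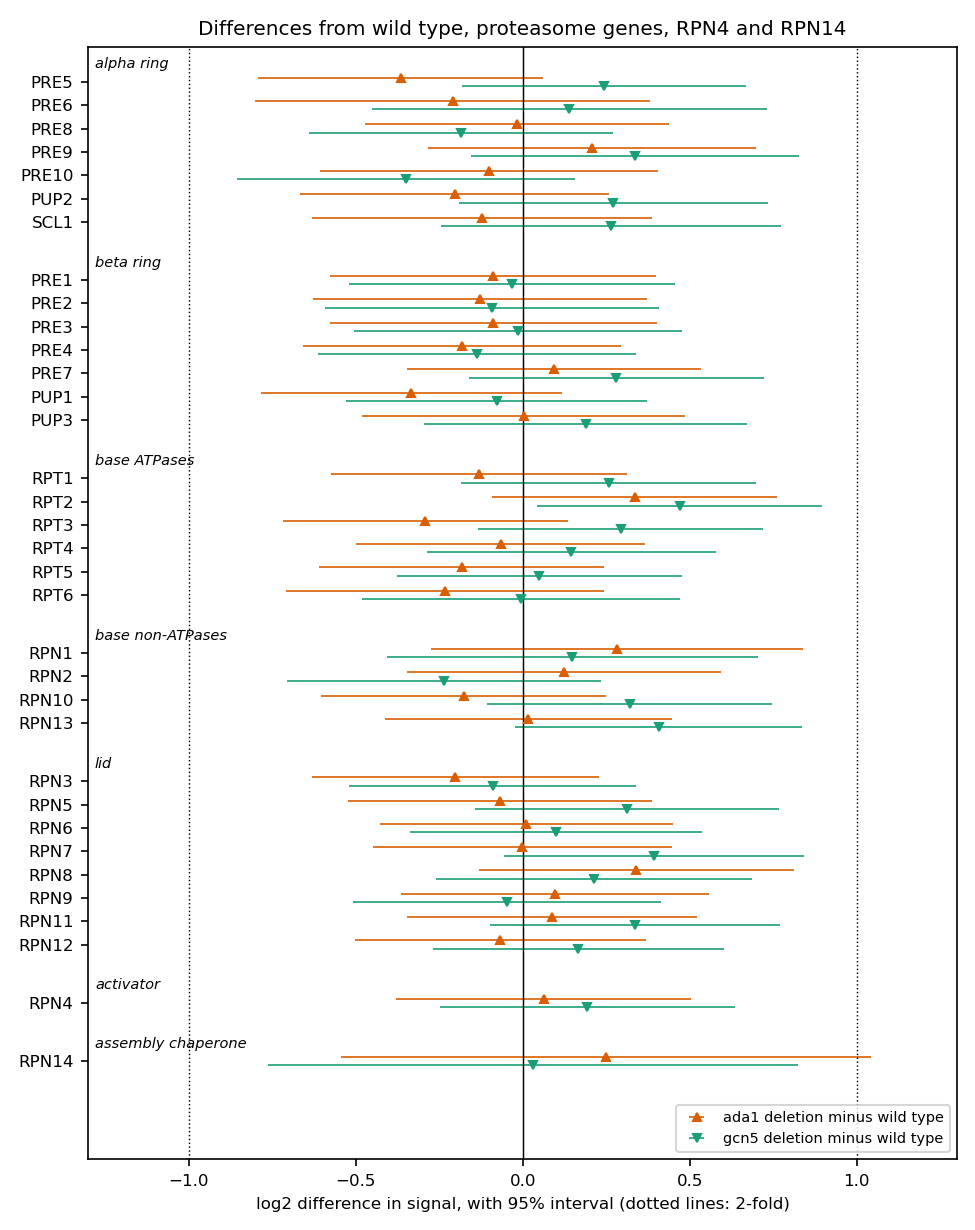
Fitted log2 difference in signal of each member in the ada1 and gcn5 deletion strains, from the mean of 2 wild-type arrays. Bars are 95% intervals from limma and dotted lines mark 2-fold; points lie between -0.36 and 0.47, and for all 32 subunits the bars stay inside the dotted lines.

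Signals of each member were close over all 4 arrays. The ratio of the highest to the lowest of a member's 4 signals had a median of 1.31, and ran from 1.08 (PRE1) to 1.66 (RPN13), while the median over all tested genes was 1.53. For 29 of the 34 members the ratio was at most 1.5, against 46.4 percent of all tested genes. RPT3 lay just above that limit, followed by PRE5 (1.52), RPN10 (1.55), RPT2 (1.58) and RPN13. Among tested genes with a mean signal of 1000 to 4000, which takes in 33 members, 60.0 percent stayed within 1.5-fold, with a median ratio of 1.43. Of those 33 members 28 did so.

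**Figure D2:**
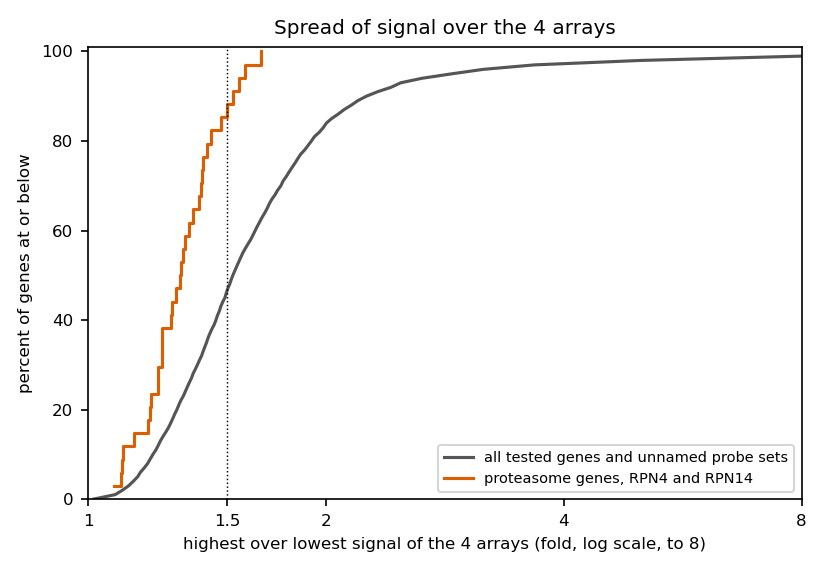
Cumulative percent of genes (vertical axis) by the ratio of the highest to the lowest signal over the 4 arrays (horizontal axis, fold on a log scale, drawn to 8), for the 34 members and for all 4541 tested. No member exceeds 1.66, while the median over all tested is 1.53; the dotted line marks 1.5-fold.

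RPN4 (YDL020C) encodes the activator of the subunit genes. Its signal was 1185 in the ada1 mutant, 1297 in the gcn5 mutant, and 1002 and 1283 in wild-type replicates 1 and 2. The ada1 array lay between the wild-type arrays, and the gcn5 array lay above both, by only 0.016 on the log2 scale in the case of replicate 2. The difference from wild type was 0.063 ± 0.23 SE in the ada1 mutant (95% interval -0.38 to 0.50, adjusted p = 0.969, limma). In the gcn5 mutant it was 0.19 ± 0.23 (-0.25 to 0.63, adjusted p = 0.758, limma). Wild-type replicate 1 differed from replicate 2 by -0.36, a larger gap than either mutant's difference from their mean. Against replicate 1 alone the ada1 mutant differed by 0.24 and against replicate 2 alone by -0.11, so its sign rests on the choice of wild-type array. Between the mutants (ada1 minus gcn5) RPN4 differed by -0.13 ± 0.26 (adjusted p = 0.901, limma).

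Alpha ring genes encode the gate of the core. PRE5 read 1171 in the ada1 and 1785 in the gcn5 mutant, with 1356 and 1676 in wild type. It had the lowest fitted difference of any member in the ada1 mutant, under both wild-type arrays, at -0.36 ± 0.22 SE (adjusted p = 0.438, limma), and lay above both in the gcn5 mutant. PUP2 followed the same order, with 2012 and 2796 in the mutants and 2044 and 2627 in wild type. So did PRE6, with 3216 and 4094 in the mutants and 3456 and 3999.7 in wild type. SCL1 read 2588 and 3384 in the mutants and 2552 and 3108 in wild type, so that only its gcn5 array lay outside the wild-type pair. PRE9, the one nonessential core subunit gene of yeast, read 2831 and 3098 in the mutants and 2282 and 2634 in wild type, above both wild-type arrays in each mutant.

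PRE10 and PRE8 were the alpha ring genes with less signal in the gcn5 than in the ada1 mutant. PRE10 read 2891 and 2432 in the ada1 and gcn5 mutants and 3359.6 and 2859 in wild type. It had the lowest difference of any member in the gcn5 mutant, below both wild-type arrays, at -0.35 ± 0.26 SE (adjusted p = 0.565, limma). PRE8 read 2301 and 2045 in the mutants and 2662 and 2032 in wild type, between the wild-type arrays in each mutant, with a difference of -0.19 ± 0.23 in the gcn5 mutant (adjusted p = 0.780, limma). The alpha ring had a median difference of -0.12 in the ada1 mutant, with 6 of 7 genes below the wild-type mean, against 42.0 percent of all tested genes, and of 0.24 in the gcn5 mutant, with 5 of 7 above it, against 64.3 percent. Against replicate 1 alone this median was -0.10 for the ada1 mutant and 0.40 for the gcn5 mutant, and against replicate 2 alone -0.26 and 0.090.

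Beta ring genes include those of the proteolytic subunits. PRE2, the chymotrypsin-like subunit, read 2665 and 2734 in the ada1 and gcn5 mutants and 2877 and 2949 in wild type. PRE3, the caspase-like subunit, read 2577 and 2709.6 in the mutants and 2835 and 2644 in wild type. PUP1, the trypsin-like subunit, read 1861 and 2221 in the mutants and 2239.7 and 2455 in wild type. PUP1 and PRE2 lay below both wild-type arrays in each mutant, and PRE3 only in the ada1 mutant. The difference of PUP1 in the ada1 mutant was -0.33 ± 0.23 SE (adjusted p = 0.542, limma).

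The noncatalytic beta subunits included the steadiest member. PRE1 read 2556 and 2658 in the ada1 and gcn5 mutants and 2680.1 and 2758 in wild type, the narrowest range of the 34. PRE4 read 2344 and 2418 in the mutants and 2806 and 2517 in wild type, and like PRE1 lay below both wild-type arrays in each mutant. PUP3 read 2532 and 2880.0 in the mutants and 2399 and 2659.6 in wild type. PRE7 had the widest wild-type gap of this ring, with 1639 and 2177, and read 2017 and 2295 in the mutants. For both PUP3 and PRE7 only the gcn5 array lay outside the wild-type pair, above it. The ring's median difference was -0.089 in the ada1 and -0.032 in the gcn5 mutant. With replicate 1 or 2 as the only wild-type array it was -0.11 or -0.11, and -0.012 or -0.053.

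Base ATPases drive unfolding and gate opening. RPT2 read 1598 in the ada1 and 1755 in the gcn5 mutant, with 1109.8 and 1447 in wild type, so both mutants lay above both wild-type arrays. Its difference was 0.34 ± 0.22 SE in the ada1 mutant (adjusted p = 0.499, limma). In the gcn5 mutant it was 0.47 ± 0.22, the highest of any member there (unadjusted p = 0.0309, adjusted p = 0.264, limma). RPT3 read 1321 and 1981 in the mutants and 1478 and 1767 in wild type, with the ada1 array below and the gcn5 array above both wild-type arrays. Its difference in the ada1 mutant was -0.29 ± 0.22 (adjusted p = 0.593, limma).

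Of the other ATPase genes, RPT1 had the same order of arrays as RPT3, with 1821 and 2383 in the ada1 and gcn5 mutants and 1898 and 2093 in wild type. RPT4 read 1716 and 1988 in the mutants and 1614 and 1999.9 in wild type, with both mutants inside the wild-type pair. RPT5 read 1422 and 1672 in the mutants and 1476 and 1766 in wild type. RPT6 read 2232 and 2614 in the mutants and 2479 and 2772 in wild type. In RPT5 and RPT6 the ada1 array was the lowest of the 4. For all 6 ATPase genes wild-type replicate 1 was the lower wild-type array. Their median difference was -0.16 in the ada1 and 0.20 in the gcn5 mutant. Against replicate 1 alone this median was -0.057 for the ada1 mutant and 0.31 for the gcn5 mutant, and against replicate 2 alone -0.27 and 0.078.

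Base subunits without ATPase activity include the receptors that bind ubiquitin chains. RPN13, a ubiquitin receptor, had the widest range of any member, with 1658 in the ada1 and 2174 in the gcn5 mutant and 1311 and 2049 in wild type. RPN10, also a ubiquitin receptor, read 1245 and 1756 in the mutants and 1131 and 1747 in wild type. In both genes the ada1 array lay inside a wide wild-type pair and the gcn5 array lay above it, by 0.085 and 0.0072 on the log2 scale over replicate 2. The fitted difference of RPN13 in the gcn5 mutant was 0.41 ± 0.22 SE (adjusted p = 0.374, limma).

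RPN1 and RPN2 are the large scaffold subunits of the base. RPN1, which docks ubiquitin shuttles, read 3791 and 3455 in the ada1 and gcn5 mutants and 2967 and 3273 in wild type, above both wild-type arrays in each mutant. Its difference was 0.28 ± 0.28 SE in the ada1 mutant (adjusted p = 0.748, limma). RPN2, which holds Rpn13, read 2711 and 2113 in the mutants and 2839.6 and 2181 in wild type. It lay between the wild-type arrays in the ada1 mutant and below both in the gcn5 mutant, at -0.24 ± 0.24 (adjusted p = 0.706, limma). The 4 genes had a median difference of 0.070 in the ada1 and 0.23 in the gcn5 mutant. With replicate 1 or 2 as the only wild-type array it was 0.24 or -0.047 in the ada1 mutant, so its sign rests on that choice, and 0.43 or 0.043 in the gcn5 mutant.

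Among lid genes RPN8 had the highest difference in the ada1 and RPN7 in the gcn5 mutant. RPN8, the partner of the deubiquitinase Rpn11, read 2837 and 2598 in the ada1 and gcn5 mutants and 2008 and 2500.2 in wild type. Both mutants lay above both wild-type arrays, and in the ada1 mutant its difference, the highest of any member there, was 0.34 ± 0.24 SE (adjusted p = 0.560, limma). RPN7, a structural subunit, read 2008 and 2637 in the mutants and 1792 and 2253 in wild type, with a difference of 0.39 ± 0.23 in the gcn5 mutant (adjusted p = 0.431, limma). RPN11, which cuts ubiquitin chains from substrates, read 1247 and 1483 in the mutants and 1062 and 1297 in wild type. In RPN7 and RPN11 the gcn5 array was the highest of the 4 and the ada1 array lay inside the wild-type pair.

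The remaining lid genes encode structural subunits. RPN5 read 2048 and 2664 in the ada1 and gcn5 mutants and 1864 and 2473 in wild type. RPN12 read 1796 and 2111 in the mutants and 1721 and 2057 in wild type, and RPN6 read 1949.8 and 2073 beside 1811 and 2066. In these 3 genes too the gcn5 array was the highest and the ada1 array lay inside the wild-type pair. RPN3 read 1612 and 1743 in the mutants and 1788 and 1921 in wild type, the one lid gene below both wild-type arrays in each mutant. RPN9 read 2468 and 2233 in the mutants and 2343 and 2270.1 in wild type. The median difference of the 8 lid genes was 0.0054 in the ada1 mutant, with 4 above and 4 below the wild-type mean, and 0.19 in the gcn5 mutant, with 6 above it, beside 42.0 percent of all tested genes below it in the ada1 and 64.3 percent above it in the gcn5 mutant. With replicate 1 or 2 as the only wild-type array it was 0.12 or -0.12 in the ada1 mutant, so its sign rests on that choice too, and 0.33 or 0.047 in the gcn5 mutant.

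RPN14, a chaperone of base assembly, was the only member with a mean signal under 1000. It read 395 in the ada1 and 339.7 in the gcn5 mutant, with 322 and 343 in wild type. The ada1 array lay above both wild-type arrays, with a difference of 0.25 ± 0.40 SE (adjusted p = 0.905, limma), and its 95% interval, from -0.54 to 1.04, was the only one among members in that mutant to cross 2-fold.

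**Figure D3:**
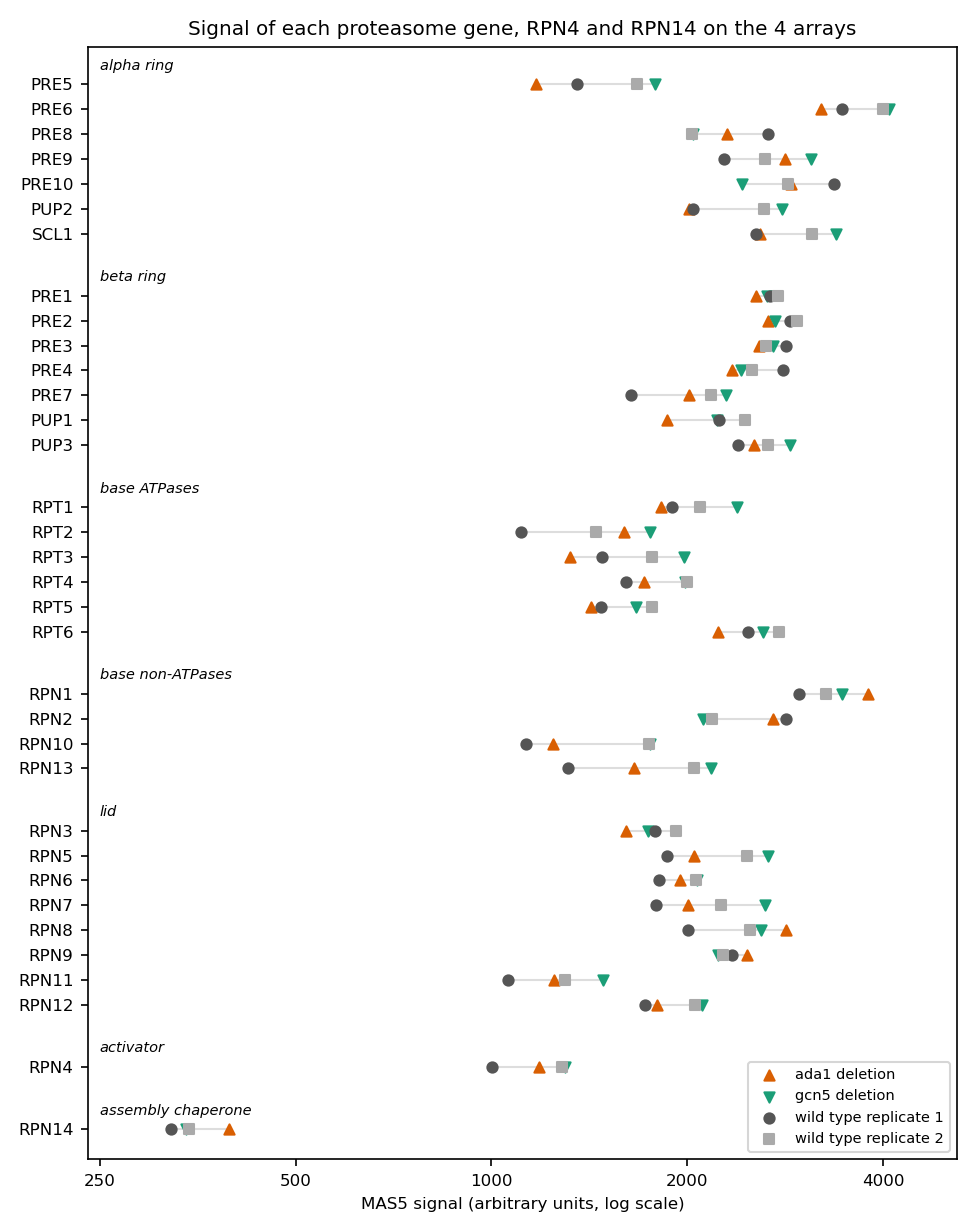
MAS5 signal (horizontal axis, arbitrary units on a log scale) of each of the 34 members on the 4 arrays, grouped by role. Symbols of a gene stay within 1.66-fold of each other, and wild-type replicate 1 is the lowest array for 17 members; signals of different genes come from different probes and are not comparable.

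The core and the regulatory particle were described apart to show whether they shifted alike. Median log2 differences were -0.11 for the 14 core genes and -0.033 for the 18 regulatory genes in the ada1 mutant, and 0.062 and 0.19 in the gcn5 mutant. After scaling to a common median the core median in the gcn5 mutant was -0.10, and after quantile normalization it was 0.13. In the ada1 mutant 8 core genes lay below both wild-type arrays and 1 above both, and 5 regulatory genes lay below and 4 above. Of all tested genes 29.9 percent lay below both and 41.5 percent above both. In the gcn5 mutant 7 core and 12 regulatory genes lay above both wild-type arrays, and 5 and 3 below both, against 53.1 percent above and 24.9 percent below among all tested genes. No test was made of a median over members.

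Wild-type replicate 1 was below replicate 2 for 28 of the 34 members, against 73.4 percent of all tested genes. The median gap was -0.21 over members and -0.18 over all tested genes, and within the members -0.14 in core and -0.26 in regulatory genes. For 19 members the ada1 array and wild-type replicate 1, the pair with the higher maxima, both lay below the gcn5 array and wild-type replicate 2, and for 4 both lay above. Over all tested genes these patterns held for 32.5 and 12.2 percent. Compared only with the wild-type array of like maximum, the ada1 mutant had medians of -0.11 in core and 0.097 in regulatory genes, and the gcn5 mutant 0.035 and 0.047. The part of the signal range in the differences from wild type was not tested.

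**Figure D4:**
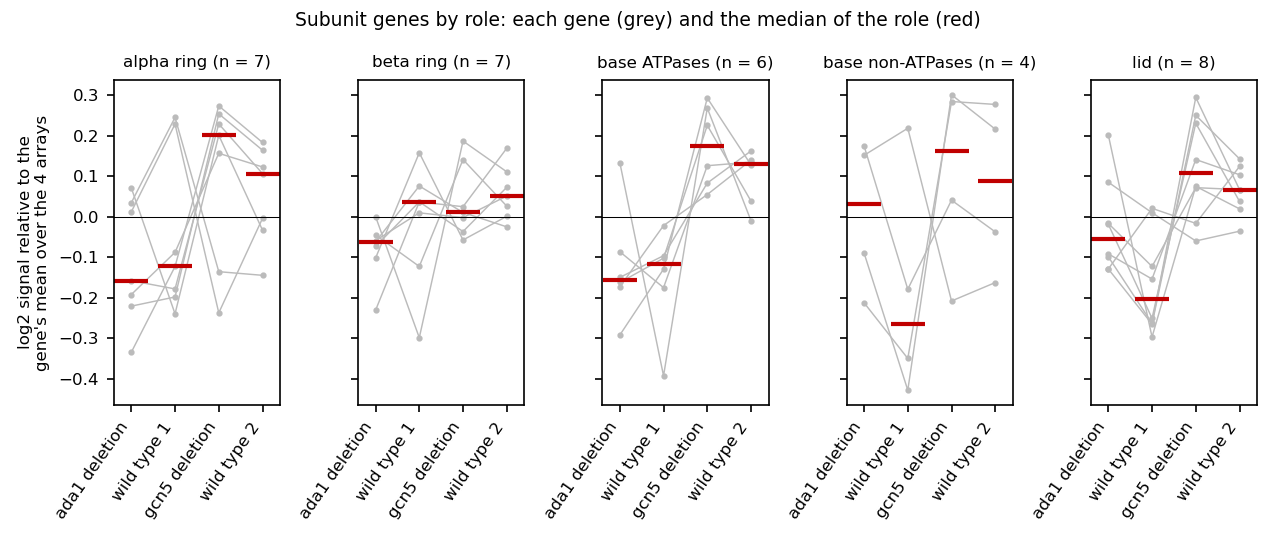
Log2 signal of each subunit gene relative to its own mean over the 4 arrays (vertical axis), by role, with arrays of like signal range side by side (ada1 deletion, wild type 1, gcn5 deletion, wild type 2). Grey lines join the values of a gene and red marks are medians of the role; in the base ATPase panel they are -0.16, -0.12, 0.18 and 0.13 from left to right, and in the beta ring panel -0.062, 0.037, 0.011 and 0.051.

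The mutants were also compared with each other, which asks whether loss of the structural subunit and of the acetyltransferase differ for these genes. No member was called (limma), against 6.25 percent of all tested genes. At an unadjusted p under 0.05 there were 3 members, against 14.9 percent of all tested genes, all 3 lower in the ada1 mutant. PRE5 differed by -0.61 ± 0.25 SE (adjusted p = 0.162, limma), RPT3 by -0.59 ± 0.25 (adjusted p = 0.191) and RPN10 by -0.50 ± 0.25 (adjusted p = 0.328). The highest differences were 0.36 ± 0.28 for RPN2 (adjusted p = 0.640, limma), 0.25 ± 0.30 for PRE10 (adjusted p = 0.818) and 0.22 ± 0.47 for RPN14 (adjusted p = 0.910). The 95% interval lay within 2-fold for 28 of 32 subunits, against 38.6 percent of all tested genes. Here too the width follows mean signal alone in the fit of deposited signals. The count of subunits ran from 14 with a single variance prior to 32 after quantile normalization.

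In all, 27 members had less and 7 more signal in the ada1 than in the gcn5 mutant, with a median of -0.19 beside -0.11 over all tested genes, 59.0 percent of which had less. This split depended on the processing. Scaling to a common median shifts all genes of an array alike. It left 18 members with less and 16 with more (median -0.0021, beside 0.074 over all tested genes). With the array pair as a block, each mutant was first set against the wild-type array of like maximum. The ada1 value was then lower for 17 members and higher for 17 (median 0.0078, beside 0.064 over all tested genes). After quantile normalization the split stayed, with 25 less and 9 more (median -0.14), beside a median of 0.0088 over all tested genes. For PUP2, PRE6, PRE5, RPT1 and RPT3 the ada1 array lay below and the gcn5 array above both wild-type arrays, and for RPN9 the reverse held. These are 6 of 34 members, against 18.2 percent of all tested genes. With the array pair as a block the median of this comparison over regulatory genes turned from -0.23 to 0.034 and the value of RPN4 from -0.13 to 0.23, while the core median went from -0.16 to -0.11 and turned to 0.026 after scaling to a common median.

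Other genes of the ubiquitin-proteasome pathway were read from 4 lists of 44 genes, of which 43 were bright enough to test. In the ada1 mutant 4 rose (NAS6, SPG5, UBC5 and UFD2) and 0 fell, beside 2.73 percent of all tested genes called higher, and 7 had an unadjusted p under 0.05, beside 16.6 percent. The number called depended on the fit, as did the number called higher over all 4541 tested, which was 124 for the deposited signals. Only SPG5 was called with a single variance prior, beside 56 called higher over all tested. After quantile normalization 7 rose (with CUE1, NAS2 and UBA1), beside 298 over all tested. After scaling to a common median 7 rose (with CUE1, ECM29 and NAS2), beside 363 over all tested. None (0) was called in the gcn5 mutant (limma), beside 4.65 percent of all tested genes, and 4 had an unadjusted p under 0.05, beside 15.0 percent. The median difference was 0.20 in the ada1 and 0.060 in the gcn5 mutant, beside 0.080 and 0.15 over all tested genes.

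Of 9 genes of assembly chaperones, 1 rose in the ada1 mutant, beside 2.73 percent of all tested genes. In the gcn5 mutant 0 were called (limma) and 1 had an unadjusted p under 0.05, beside 4.65 and 15.0 percent. NAS6, which encodes a chaperone of base assembly, read 2865 in the ada1 and 2091 in the gcn5 mutant, with 1595 and 1402 in wild type, both mutants above both wild-type arrays. It rose in the ada1 mutant by 0.94 ± 0.22 SE (adjusted p = 0.000627, limma, from 2.39e-05 to 0.117 over 8 settings), and the call was lost with a single variance prior. Its difference in the gcn5 mutant was 0.48 ± 0.22 (adjusted p = 0.254, limma). NAS2, another base chaperone, read 489.8 and 294 in the mutants and 274 and 307 in wild type. Its difference in the ada1 mutant, 0.76 ± 0.40 (adjusted p = 0.338, limma), was called after quantile normalization (0.0308) and after scaling to a common median (0.00845). IRC25 and TMA17, chaperones of core and base assembly, had no call: IRC25 read 343 and 446 in the mutants and 253 and 403 in wild type, and TMA17 154 and 219 beside 173 and 196.

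Of 12 genes listed as partners of the proteasome, 1 rose in the ada1 mutant, beside 2.73 percent of all tested genes. An unadjusted p under 0.05 (limma) was found there for 3 (SPG5, ECM29 and CUE1), beside 16.6 percent. CUE1 encodes a protein that recruits the enzyme Ubc7 at the endoplasmic reticulum, so it is not a partner in the strict sense. The gcn5 mutant had 0 called (limma) and 3 at an unadjusted p under 0.05, beside 4.65 and 15.0 percent. SPG5, a proteasome-binding factor of stationary phase, read 4585 in the ada1 and 1310.0 in the gcn5 mutant, with 1545 and 1491 in wild type. It rose in the ada1 mutant by 1.59 ± 0.22 SE (adjusted p = 6.33e-11, limma). ECM29, a proteasome-binding scaffold, read 1081 and 522 in the mutants and 767 and 596 in wild type, above both wild-type arrays in the ada1 and below both in the gcn5 mutant. Its difference in the ada1 mutant was 0.68 ± 0.29 (adjusted p = 0.172, limma, but 0.00775 after scaling to a common median). UBP6, a deubiquitinase gene, read 1046 and 1299 in the mutants and 659 and 1114 in wild type. SEM1, a small lid subunit gene outside the symbol rule, read 1806 and 1931 in the mutants and 1093 and 1745 in wild type. In both the gcn5 array was the highest of the 4.

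Of 16 genes of ubiquitin, its enzymes and the Cdc48 complex, 2 rose in the ada1 mutant, beside 2.73 percent of all tested genes. The gcn5 mutant had 0 called (limma) and 0 at an unadjusted p under 0.05, beside 4.65 and 15.0 percent. UBC5, a ubiquitin-conjugating enzyme gene, read 1174 in the ada1 and 532 in the gcn5 mutant, with 532 and 607 in wild type. It rose in the ada1 mutant by 1.05 ± 0.31 SE (adjusted p = 0.0110, limma, from 8.21e-06 to 0.106 over 8 settings, called in 5). Its paralog UBC4 read 7227 and 5986 in the mutants and 6799.9 and 6247 in wild type. UFD2, which extends ubiquitin chains, read 1920.5 and 1133 in the mutants and 1120.0 and 1092 in wild type. It rose in the ada1 mutant by 0.80 ± 0.22 (adjusted p = 0.00631, limma, from 0.00193 to 0.254, called in 7). DOA4, a deubiquitinase gene, read 235 and 337 in the mutants and 192 and 278 in wild type, and the ubiquitin ligase gene UFD4 1350.3 and 1244 beside 914 and 1071.

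Of the regulators of Rpn4, 0 of 6 tested genes were called or had an unadjusted p under 0.05 in either mutant (limma). Of all tested genes, 8.43 percent were called in the ada1 and 4.65 percent in the gcn5 mutant. An unadjusted p under 0.05 was reached by 16.6 and 15.0 percent. PDR3, which encodes an activator of RPN4, read 166 and 212 in the ada1 and gcn5 mutants and 244 and 234 in wild type, below both wild-type arrays in each mutant. HSF1, the heat shock activator gene, read 309 and 266 in the mutants and 202 and 285 in wild type. PDR1 read 627 and 698 in the mutants and 519 and 576 in wild type, and YAP1 377 and 413 beside 287 and 387; both encode activators of RPN4, and in both the gcn5 array was the highest of the 4. MUB1, which takes part in the degradation of Rpn4, read 325 and 421 in the mutants and 360.2 and 375 in wild type. UBR2, its partner ubiquitin ligase gene, was too dim to test, at 176 and 143 in the mutants and 151 and 159.8 in wild type.

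**Figure D5:**
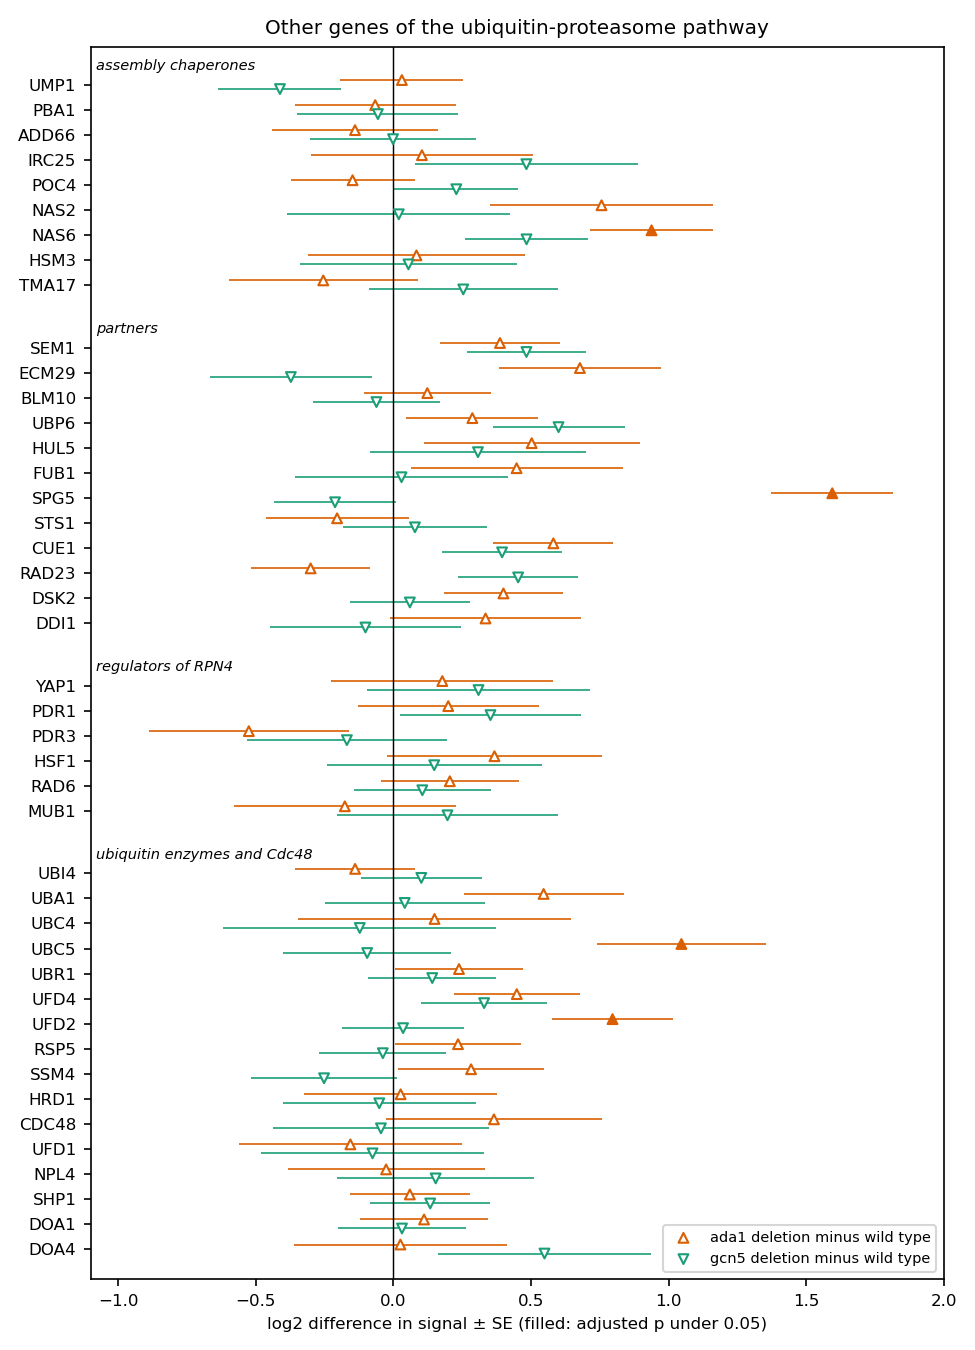
Log2 difference in signal ± SE (horizontal axis) of the 43 other tested genes of the pathway in the ada1 and gcn5 deletion strains, from the mean of 2 wild-type arrays. Filled symbols mark an adjusted p under 0.05 (limma): NAS6, SPG5, UBC5 and UFD2, all in the ada1 deletion strain.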

How the data were processed

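Total RNA was labelled with biotin and read on Affymetrix yeast arrays, 1 sample each. The deposited values are MAS5 signals, a linear intensity for each probe set, per the submitters' processing notes; the sources used here do not give its version or scaling target. Of 5716 probe sets, 5498 had 1 platform symbol, 0 had several and 218 had none; all 5498 were matched by gene identifier to the RefSeq table of assembly R64, used only for names. Where a gene had several probe sets, the brightest on average was kept.

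Of 5667 genes and unnamed probe sets, the 4541 with a mean log2 signal at or above the 20th percentile (a signal of 166) were tested. Log2 signal was fitted for 3 groups on all 4 arrays with limma 3.58.1 in R 4.3.3 (eBayes with a trend). The fit had 1 residual degree of freedom. For the deposited signals the prior degrees of freedom were infinite, so a gene's SE depends only on its mean signal. They were 9.17 after quantile normalization and 8.44 with signals raised to background. In those 2 settings a gene's own wild-type gap also enters its SE. P-values were adjusted by Benjamini-Hochberg over all tested, and an adjusted p under 0.05 is called changed. The number of arrays limits the precision. Alternatives were quantile normalization, scaling tested genes to a common median, no filter, a filter at the 40th percentile, signals raised to background, a single variance prior, the mean of a gene's probe sets, leaving out each wild-type array, and the array pair as a block. In the block each mutant was compared with the wild-type array of like maximum. The comparison between the mutants was then the ada1 value minus the gcn5 value.

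All members are named, with statistics for RPN4 and for the 3 highest and 3 lowest differences in each comparison. Of 4 lists of other pathway genes (assembly chaperones, partners, regulators of RPN4, and ubiquitin with the Cdc48 complex), those called and the 2 with the largest differences in each comparison are named. CUE1, UBA1, UBC4 and UBR2 were added after their values were seen. The members and lists were chosen with earlier results of these data known.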

Additional observations from a re-analysis of the deposited data

Results flagged for a closer look

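No difference of a member between the mutants was called, and groups of this size allow no check for outlying arrays. For 5 other genes of the pathway the difference between the ada1 and the gcn5 mutant, 1 array each, was called (limma, over 8 settings with a test), that is 5 of 43, beside 6.25 percent of all tested genes. SPG5 differed by 1.81 ± 0.26 SE in log2 signal (adjusted p = 2.22e-10, limma, called in 8 of 8), higher in the ada1 mutant. UBC5 was higher there by 1.14 ± 0.35 (adjusted p = 0.0242, limma, from 1.34e-06 to 0.159, called in 5 of 8). ECM29 was higher by 1.05 ± 0.34 (adjusted p = 0.0352, limma, from 7.38e-06 to 0.189, called in 5 of 8), and UFD2 by 0.76 ± 0.26 (adjusted p = 0.0465, limma, from 0.00220 to 0.449, called in 4 of 8). RAD23, which encodes a shuttle for ubiquitylated proteins, differed by -0.75 ± 0.25 (adjusted p = 0.0444, limma, from 0.0284 to 0.453, called in 4 of 8). It read 1151 in the ada1 and 1942 in the gcn5 mutant, with 1295 and 1554 in wild type. With the array pair as a block, a value without a test, ECM29 went to 0.69 and RAD23 to -0.49, while SPG5 was at 1.76, UBC5 at 1.33 and UFD2 at 0.72. The mutant arrays also differ in signal range, and the part of that in these differences was not tested.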

How the results depend on the processing

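No member was called in any of the 3 comparisons under any of the 8 settings with a test. The smallest adjusted p of a member over these settings (limma) was 0.128 (RPN8) in the ada1 mutant, 0.133 (PRE9) in the gcn5 mutant and 0.0971 (RPT3) between the mutants, each after quantile normalization. Scaling to a common median moved the core median to -0.10 in the gcn5 mutant. Between the mutants it put the core median at 0.026 and the regulatory median at -0.046. Quantile normalization gave 0.13, -0.14 and -0.16 for these 3 medians. With the array pair as a block the comparison between the mutants gave 0.034 for the regulatory median and 0.23 for RPN4. Scaling moved the median of all tested genes in the gcn5 mutant from 0.15 to -0.012, and between the mutants from -0.11 to 0.074. Leaving out either wild-type array gave values without a test. In the ada1 mutant they were -0.11 to -0.11 for the core median, -0.20 to 0.097 for the regulatory median and -0.11 to 0.24 for RPN4. In the gcn5 mutant they were 0.035 to 0.12, 0.047 to 0.31 and 0.016 to 0.37. Calls over all genes, 383 in the ada1 mutant, ran from 245 with a single variance prior to 740 after scaling. In the gcn5 mutant, with 211, they ran from 106 with signals raised to background to 490 after scaling, and between the mutants, with 284, from 135 with signals raised to background to 577 after quantile normalization. The cause was not tested. The array pairs follow signal range, not the labels, and their block left no residual degrees of freedom for a test. By replicate number no paired fit was made, since the labels number only the wild-type samples.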
